A study of Mus musculus with 12 samples.

Results

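Zinc finger protein genes named Zfp and a number were described in polysome-bound RNA of mouse oocytes. Members were chosen by symbol and by level: a mean of at least 5 FPKM over all 12 libraries. FPKM is a level per transcript length, scaled by library size. Zfp36 and Zfp57 were left out by the rule. Of 338 other symbols of this form, 127 were members, among 23235 genes in the table. A further 98 had a mean of at least 1 but under 5 FPKM, 86 were above 0 but under 1, and 27 were listed at 0 in every library. Just inside the limit lay Zfp282 (5.10) and Zfp318 (5.03), and just outside it Zfp169 (4.91) and Zfp710 (4.80). The level used to choose members is a description, and the mean takes in every group. A gene high in some groups only could therefore enter: 54 members averaged at least 5 FPKM in each of the 6 groups.

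The oocytes came from Cnot6l-/- (KO) and wild-type (WT) C57BL/6 mice at postnatal day 21. KO and WT oocytes at the germinal vesicle (GV) stage were taken 48 h after PMSG, a hormone that stimulates follicle growth. KO and WT oocytes at MI and MII, the first and second meiotic metaphase, were taken after 8 h and 16 h of culture. Each of the 6 groups has 2 libraries, made with Tn5 transposase from pre-amplified cDNA. The study's design text mentions 2 oocytes, without saying whether these are the libraries of a group, pools or the oocytes in each library. The number of mice is not stated, nor which bases of Cnot6l were deleted, so p-values measure the spread between libraries, which may be technical. Cnot6l encodes a catalytic deadenylase of the CCR4-NOT complex, and its FPKM was 6.28 and 21.6 in KO against 38.7 and 16.1 in WT at GV, where the libraries overlapped. At MI it had 23.5 and 16.5 FPKM in KO against 68.5 and 47.9 in WT, and at MII 16.4 and 16 FPKM in KO against 65.2 and 49.4 in WT.

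Classical C2H2 zinc fingers are short folds in which paired cysteines and histidines hold a zinc ion, and arrays of them read DNA or RNA. Many of these genes also encode a KRAB domain, which recruits the scaffold Trim28 and with it the histone methyltransferase Setdb1 to silence transposons and other sites. Fully grown oocytes have shut down transcription. What they translate during maturation comes from stored mRNA, which gains or loses poly(A) tail: short elements in the 3′ UTR call for cytoplasmic polyadenylation, and CCR4-NOT removes the tail. A lower polysome level in bulk oocytes cannot be told apart from less RNA per oocyte, fewer oocytes contributing or weaker loading on ribosomes.

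The letters of the annotated proteins show how varied the members are. An annotated transcript was found for 126 of the 127. The C2H2 pattern occurred in a median of 8.5 copies, with up to 27 in Zfp423, at least 10 in 54 members and none in 6. KRAB letters were found in 52 members and not in 74, and SCAN letters in 4, of which 2 had both. Members with KRAB letters had a median of 12 fingers against 5 in the others. The median of their mean levels was 12 FPKM, against 15.2 FPKM without KRAB letters, and only 3 of the 20 most abundant members had them. Members were unevenly spread over chromosomes: 30 lie on chromosome 7, or 23.6% against 7.19% of all genes with a mean of at least 5 FPKM, 15 on chromosome 17 (11.8% against 4.99%) and 14 on chromosome 8 (11% against 5.8%). Related genes can share reads. Zfp932 shared 55.4% of its 50-base words with other annotated transcripts, Zfp534 62.3%, Zfp963 40.0%, Zfp345 28.5% and Zfp936 27.0%, so their levels are uncertain, while 87 members shared none.

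The 3′ ends were searched for the cytoplasmic polyadenylation element, written as TTTTAT or TTTTAAT, and for the polyadenylation hexamer AATAAA or ATTAAA, on the transcript strand only. Of 102 members with 100 bases of annotated 3′ UTR, 20 (19.6%) held the element, against 20.9% of genes with a mean of at least 5 FPKM, and 80 (78.4%) held the hexamer, against 81.4%. The 4 sites shown are from members with a mean of at least 20 FPKM in which both lie within 30 bases, in either order. The hexamer comes before the element in Zfp957, Zfp692 and Zfp821, and after it in Zfp473. The part of these sites in tail lengthening was not tested. Capitals mark both motifs, the letters are those of mouse build 9 (mm9), and each site is given from 5′ to 3′ of the transcript:
Zfp957, chr14:79612181-79612210, minus strand: tctatataAATAAAtTTTTATtaaactaat
Zfp692, chr11:58128084-58128113, plus strand: agaaatAATAAAtggtaTTTTATacaagtg
Zfp821, chr8:112248800-112248829, plus strand: gagggcaAATAAAttaaTTTTATctttact
Zfp473, chr7:51986870-51986899, minus strand: aaTTTTATgataaagacaagaAATAAAgtg

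Of these 4 genes, Zfp692 had 84.8 and 60.4 FPKM in KO MI against 16.9 and 31.2 FPKM in KO GV, and this change passed the test (log2 difference 1.59, limma adjusted p = 0.0277). Zfp692 was singled out after its values were seen. Its call was lost with median scaling (0.101) and without KO GV replicate 1 (0.186) or either KO MI library (0.218 and 0.0857). Zfp957 passed no test as deposited, with 81.7 and 83.4 FPKM in KO MI, 46.7 and 48.4 in WT MI, 40.2 and 58.0 in KO GV and 45.7 and 45.2 in WT GV. At MII it had 52.4 and 74.7 FPKM in KO against 95.7 and 62.7 FPKM in WT. With median scaling it was called lower in KO MII than in WT MII (-1.07, adjusted p = 0.031) and higher in WT MII than in WT MI (1.07, adjusted p = 0.0316). Zfp821 had 54.7 and 29.2 FPKM in KO MI and 0 and 11.2 in WT MI, a difference that missed the threshold (adjusted p = 0.0738). Zfp473, whose human counterpart acts in histone pre-mRNA processing, had 37.4 and 25.9 FPKM in KO MI against 8.72 and 19.3 FPKM in WT MI (adjusted p = 0.0803). Across the 20 members with the element, the median MI minus GV change was 0.30 in KO and -0.44 in WT. It was 0.08 in KO and -0.84 in WT for the 82 members without it, and 0.26 in KO and -0.87 in WT over all tested genes. The difference between members with and without the element was not tested.

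Summed over the 127 members, FPKM was 4683 and 4668 in KO GV libraries against 4529 and 4277 in WT GV. At MI the sum was 5054 and 5097 in KO against 2130 and 2205 in WT, and at MII 3512 and 3509 in KO against 2339 and 2330 in WT. The KO sums thus lay above the WT sums at each stage, by the widest margin at MI. They are a description, since members were chosen by their mean over the same libraries. A mean of at least 5 FPKM was reached by 116 members in KO GV and 110 in WT GV. The counts were 127 in KO MI against 87 in WT MI, and 109 in KO MII against 72 in WT MII. As a share of all FPKM in a library the members made up 0.439% and 0.435% in KO GV, against 0.362% and 0.334% in WT GV. At MI the shares were 0.309% and 0.306% in KO against 0.205% and 0.207% in WT, and at MII 0.290% and 0.289% in KO against 0.263% and 0.264% in WT. The 4 most abundant genes, Zfp212, Zfp207, Zfp655 and Zfp296, held 20.6% to 27.6% of the sum in each library. Without them the sums were 3668 and 3715 in KO MI against 1582 and 1670 in WT MI, and 2682 in both KO MII libraries against 1858 and 1736 in WT MII.

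Members listed at 0 FPKM numbered 24 and 27 in the WT MII libraries, 7 and 8 in WT MI and 0 to 4 in the other 8 libraries. Fewer genes of any kind were detected in these WT groups too. Of all 23235 genes, 9116 and 9064 were above 0 in the WT MII libraries and 10578 and 10487 in WT MI. The other 8 libraries had 11936 to 13319. These counts take in genes of any level. The share at 0 among genes with a mean of at least 5 FPKM was not counted, so the members cannot be set against it. In both WT MII libraries 14 members were at 0. Tests of these members that use the WT MII libraries are given below without a fold change, since a listed 0 sets no lower limit here. The FPKM total of a library also differed. At GV it was lower in KO, at 1067558 and 1071813 FPKM against 1252142 and 1280736 FPKM in WT. It was higher in KO later, at 1635234 and 1663871 FPKM in KO MI against 1040466 and 1063273 FPKM in WT MI. At MII it was 1211628 and 1213953 FPKM in KO against 889989 and 884142 FPKM in WT. The reads behind each total are not known. Differences are therefore given as deposited, beside the median difference of all 11667 tested genes and beside a fit in which the libraries were scaled to a common median ratio.

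**Figure D1:**
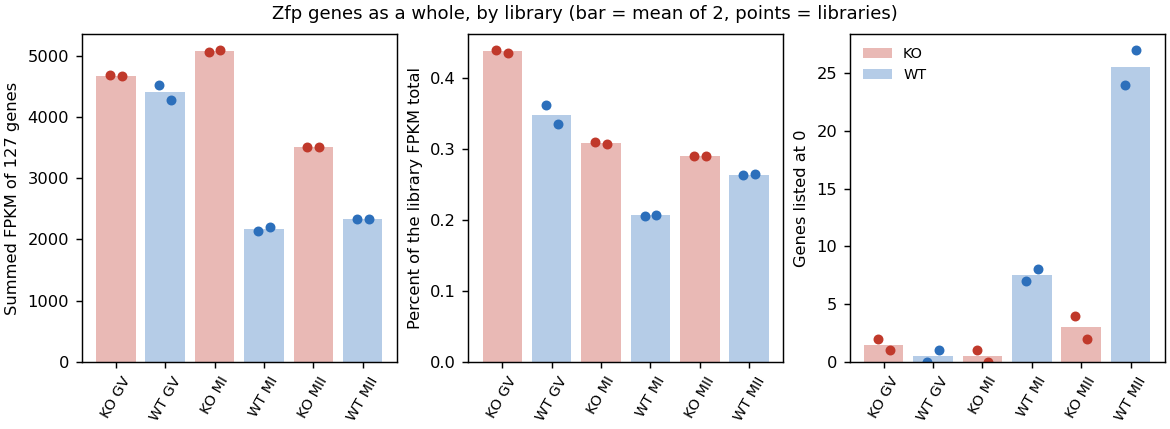
Summed FPKM of the 127 Zfp genes, their percent of the FPKM total and the number listed at 0, for KO (red) and WT (blue) at GV, MI and MII; bars are means of 2 libraries, points the libraries. KO MI sums are 5054 and 5097 against 2130 and 2205 in WT MI, and WT MII lists 24 and 27 genes at 0.

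Replicates correlated less well over the members than over all tested genes, a measure that also depends on the range of levels. Pearson's r of log2(FPKM + 1) between the 2 libraries of a group was 0.684 to 0.875 across members and 0.865 to 0.949 across all tested genes, a description across genes that are not independent. The median absolute gap between the 2 libraries was 0.32 to 0.736 across members on that scale. Across genes with a mean of at least 5 FPKM it was 0.248 to 0.583. Members had the wider gap in every group except WT MII (0.574 against 0.583). The oocyte markers summed to between 20500 and 57000 FPKM, with only Sohlh1 at 0 in whole groups. The 14 cumulus and granulosa markers summed to 158 and 219 FPKM in KO GV against 303 and 327 in WT GV, 142 and 179 in KO MI against 118 and 135 in WT MI, and 87.4 and 127 in KO MII against 55.4 and 66.5 in WT MII. Of these 14 markers, 11 were above 0 in at least 1 library of KO GV, 9 in WT GV, 13 in KO MI and 12 in WT MI. At MII, 9 were above 0 in KO and 5 in WT. Foxl2, a defining marker of that type, was at 0 in every group. The part of these cells in the differences below was not tested.

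The members ranged widely in level, with 8 at a mean of at least 100 FPKM, 49 at 20 or more and 46 under 10. Zfp212 was highest, at a mean of 356 FPKM over the 12 libraries (chromosome 6, 47870567 to 47882636, mm9). Zfp207, also known as BuGZ, which binds Bub3 and aids spindle assembly and chromosome alignment, averaged 210 FPKM (chromosome 11, 80196781 to 80209750). Zfp655 averaged 193 FPKM, and Zfp296, which interacts with Klf4 and aids reprogramming to pluripotency, 182 FPKM. Zfp828, named Champ1 in RefSeq and needed for chromosome alignment at metaphase, followed at 106 FPKM, then Zfp513 (104), Zfp706 (103), Zfp277 (102), Zfp750 (94.8) and Zfp873 (68.5). These are ranks of means, and libraries of neighbouring genes overlapped: Zfp655 spanned 103 to 264 FPKM and Zfp296 26.5 to 410 FPKM. None of the 10 had KRAB letters.

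**Figure D2:**
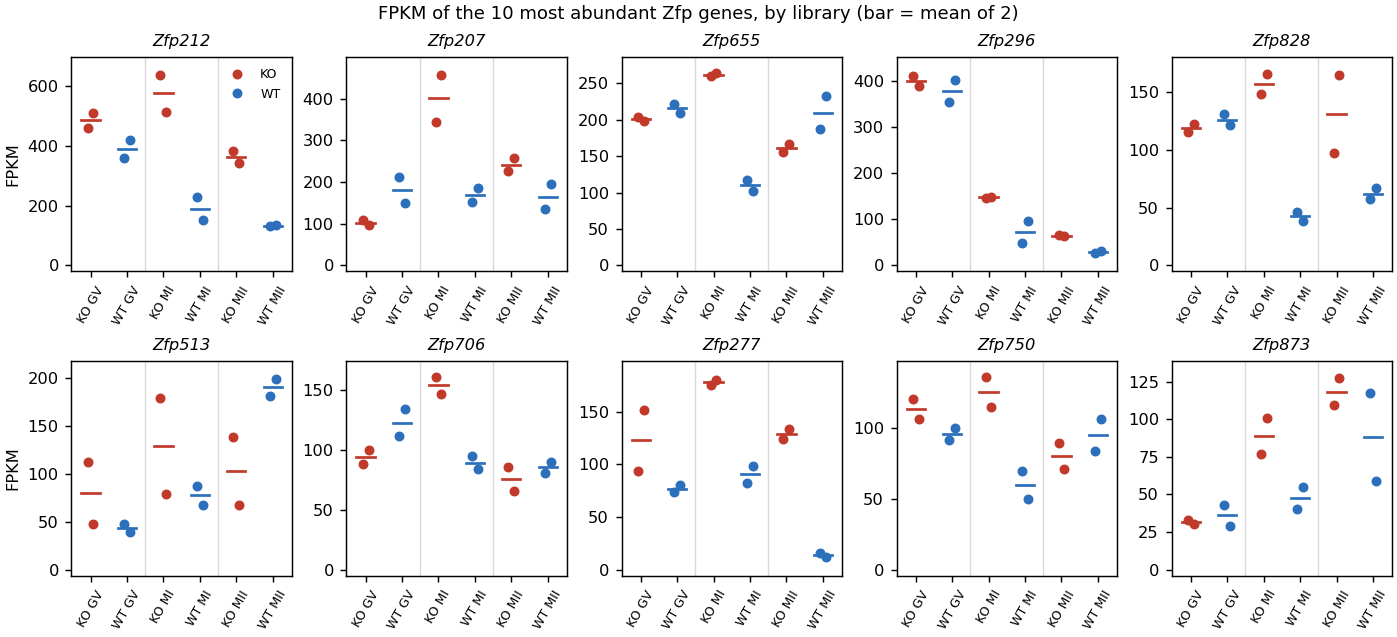
FPKM of the 10 most abundant Zfp genes in each library, KO (red) left of WT (blue) at GV, MI and MII, with linear axes from 0 and bars at the mean of 2. Zfp212 reaches 637 and 511 in KO MI against 230 and 151 in WT MI, Zfp296 is highest at GV in both genotypes, and Zfp277 is at 16.2 and 11.7 in WT MII.

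At GV the KO and WT members were not separable by the test. limma called 0 of 127 higher and 0 lower, where it called 0.163% of all tested genes higher and 1.4% lower. At an unadjusted p below 0.05 there were 6 higher and 1 lower, and the fit scaled to the median also called 0 (background 0.171% higher and 0.9% lower). The median difference was 0.09 on the log2 scale over members and -0.06 over all tested genes. Among the abundant members, Zfp212 had 460 and 509 FPKM in KO GV against 360 and 419 FPKM in WT GV, and Zfp207 had 110 and 96.3 FPKM in KO GV against 212 and 150 FPKM in WT GV. Libraries of these genes did not overlap between genotypes, but neither passed the test.

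At MI, 37 of the 127 members were higher in KO than in WT as deposited and none was lower, by the limma test at an adjusted p below 0.05. The background was 27.9% of all tested genes higher, 35% of genes with a mean of at least 5 FPKM, and 0.463% lower, so the members' share of 29.1% was near that of genes in general. The median difference was 1.19 over members and 1.03 over all tested genes, and 91 members had both KO libraries above both WT libraries (71.7%, against 77.6% of genes with a mean of at least 5 FPKM). With libraries scaled to a common median none of the 37 passed, and no member was called in either direction (background 1.88% higher and 2.83% lower), while 14 were higher and 2 lower at an unadjusted p below 0.05. The count was 12 without KO MI replicate 1 and 10 without KO MI replicate 2.

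The widest differences at MI included KRAB genes. Zfp791 (chromosome 8, 87633066 to 87646994) had 42.8 and 46.1 FPKM in KO MI against 0 and 5.33 FPKM in WT MI. KO libraries lay far above WT, with a log2 difference of 4.17 ± 0.776 (SE, n = 2 libraries each), 3.14 above the median of all genes (limma adjusted p = 0.00413, 0.0593 with median scaling). Zfp708, whose protein binds a class of retrotransposon in early embryos, had 39.5 and 58.1 FPKM in KO MI against 3.5 and 0 FPKM in WT MI. Its log2 difference was 4.53 ± 1.03 (adjusted p = 0.0109), and the call was lost without KO MI replicate 1 (0.0536), KO MI replicate 2 (0.0820) or WT MI replicate 2 (0.0686). The KRAB gene Zfp109 was also called (log2 difference 2.90, limma adjusted p = 0.0402, 0.316 with median scaling). It lost the call in most fits that left out a library, with a pseudocount of 0.1, with no filter and with its groups fitted alone. Zfp61, another KRAB gene, lay outside the 5 largest called differences, and its MI call was not tried without each library. Zfp61 had 54.2 and 41.1 FPKM in KO MI against 4.78 and 9.40 FPKM in WT MI, a log2 difference of 2.64 ± 0.411 (adjusted p = 0.00175, 0.0535 with median scaling). About 10.1% of the 50-base words of Zfp708 recur in other transcripts, and none of those of Zfp791 and Zfp61.

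Zfp839 and Zfp383 had low values in WT MI. Zfp839 had 14.2 and 10.1 FPKM in KO MI against 0 and 1.39 FPKM in WT MI (log2 difference 3.07 ± 0.671, limma adjusted p = 0.00895), lost without KO MI replicate 1 (0.0703). Zfp383 had 5.74 and 11.4 FPKM in KO MI against 0.44 and 0 FPKM in WT MI (2.93 ± 0.653, adjusted p = 0.00985), lost without KO MI replicate 2 (0.0897). In both genes the KO libraries stood clear of WT, but at levels where a few reads can decide the value.

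Several abundant members were higher in KO MI by smaller factors and with tighter replicates. Zfp212 had 637 and 511 FPKM in KO MI against 230 and 151 FPKM in WT MI, a log2 difference of 1.61 ± 0.203 (limma adjusted p = 0.000541). Zfp655 had 260 and 264 FPKM in KO MI against 117 and 103 FPKM in WT MI, 1.25 ± 0.167 (adjusted p = 0.00078). Zfp828 (Champ1) had 148 and 166 FPKM in KO MI against 46.3 and 38.6 FPKM in WT MI, 1.87 ± 0.266 (adjusted p = 0.00108). All 3 calls held without each library in turn and were lost with median scaling, where their adjusted p were 0.15, 0.514 and 0.109.

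The spindle gene Zfp207 had 344 and 458 FPKM in KO MI against 152 and 186 FPKM in WT MI, 1.24 ± 0.248 (limma adjusted p = 0.00594). That is 0.21 above the median of all genes, and the call was lost without KO MI replicate 2 (0.0678). Zfp706, a small protein that aids the exit of embryonic stem cells from self-renewal, and Zfp277, a partner of the Polycomb protein Bmi1, were called at 0.78 (adjusted p = 0.0266) and 0.97 (adjusted p = 0.0272). Both turned negative with median scaling, to -0.24 and -0.05. They lie below the median difference of all genes.

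Members were also grouped by known role at MI, where 27.9% of all tested genes were higher in KO and 0.463% lower. Of the 9 that act on RNA, the ribosome, ubiquitin or SUMO, 1 was higher in KO MI and 8 were not called, with a median difference of 0.96. That 1 was Zfp622, a maturation factor of the large ribosomal subunit, with 13.6 and 6.10 FPKM in KO MI against 2.69 and 0.58 FPKM in WT MI (limma adjusted p = 0.0463). Zfp622 lost its call in 7 of the 12 fits that left out a library. Zfp598, the ubiquitin ligase that senses collided ribosomes, had 35.2 and 40.9 FPKM in KO MI against 36.7 and 29.3 FPKM in WT MI, and the SUMO ligase Zfp451 had 40.5 and 43.5 FPKM in KO MI against 33.8 and 30.5 FPKM in WT MI. Neither was called, at log2 differences of 0.21 and 0.38, both below the 1.03 median of all genes. Of 6 transcription factors without KRAB, 2 were higher and 4 were not called, with a median difference of 1.38. The promoter-binding activator Zfp143 (24.3 and 32.6 FPKM in KO MI, 4.33 and 3.34 FPKM in WT MI, adjusted p = 0.0222) and Zfp148 (10.1 and 11.3 FPKM in KO MI, 2.94 and 1.16 FPKM in WT MI, adjusted p = 0.0253) were higher. Zfp143 lost its call without either KO MI library (0.0824 and 0.127) or either WT MI library (0.0618 and 0.0826), and Zfp148 without either KO MI library (0.104 and 0.128) or WT MI replicate 2 (0.102).

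At MII, 37 members were higher in KO than in WT and 3 were lower by the same limma test. The background was 25.4% higher and 3.2% lower over all tested genes, and 32.5% and 4.15% over genes with a mean of at least 5 FPKM, so the members' 29.1% and 2.36% were again near it. Here the scaled fit kept calls in both directions, 24 higher, each of which was also among the 37, and 13 lower, including the 3. The background of that fit was 14.5% higher and 10.4% lower. The median difference was 1.12 over members, with the fitted values of the 14 genes at 0 among them, and 0.81 over all tested genes. Without KO MII replicate 1 or 2 there were 21 or 20 higher members, and 0 or 1 lower, and without WT MII replicate 2 there was 1 lower. Of the 37 higher at MII, 21 were also among the 37 higher at MI, or 56.8% of each list. The same overlap was not counted over all tested genes, so this share has no background beside it.

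The clearest MII difference was in Zfp277 (chromosome 12, 41041633 to 41172377). It had 124 and 133 FPKM in KO MII against 16.2 and 11.7 FPKM in WT MII, so the genotypes were far apart and the replicates close. The log2 difference was 3.13 ± 0.277, 2.32 above the median of all genes (limma adjusted p = 2.11e-05, 0.000217 with median scaling). The call held without each library in turn.

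Zfp414, Zfp691 and Zfp622 were present in KO MII and listed at 0 in both WT MII libraries. Zfp414 (chromosome 17, 33766037 to 33768659) had 19.7 and 20.9 FPKM in KO MII (limma adjusted p = 7.27e-05, 0.000118 with median scaling). Zfp691 had 7.96 and 17.8 FPKM (adjusted p = 0.000994, 0.00146 scaled), and the ribosome factor Zfp622 had 12 and 6.6 FPKM (adjusted p = 0.00517, 0.00695 scaled). These 3 calls held under every alternative tried. Zfp109, a KRAB gene, had 11.4 and 17.7 FPKM in KO MII and 0 in both WT MII libraries (adjusted p = 0.00973), a call lost without KO MII replicate 2 (0.0674).

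The KRAB genes Zfp791 and Zfp708 were again far apart between genotypes at MII. Zfp791 had 12.5 and 20.4 FPKM in KO MII against 0 and 0.36 FPKM in WT MII, 3.87 ± 0.776 (limma adjusted p = 0.00422, 0.0113 with median scaling). Zfp708 had 46.0 and 60.5 FPKM in KO MII against 5.56 and 0 FPKM in WT MII, 4.39 ± 1.03 (adjusted p = 0.00982). Zfp791 kept its call without each library, and Zfp708 lost it without KO MII replicate 2 (0.0630) or WT MII replicate 2 (0.0595).

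Of the 3 members lower in KO MII, Zfp580 had 0 and 2.82 FPKM in KO MII against 36.4 and 26.7 FPKM in WT MII. Its log2 difference was -4.04 ± 0.939 (limma adjusted p = 0.00915), lost without KO MII replicate 1 (0.0803). Zfp607, a KRAB gene named Zfp607a in RefSeq, had 7.11 and 7.23 FPKM in KO MII against 20.5 and 23.4 FPKM in WT MII, -1.49 ± 0.426 (adjusted p = 0.0250). That call was lost without KO MII replicate 1 (0.0941) or 2 (0.0895) or WT MII replicate 2 (0.0721), and 14.0% of the words of Zfp607 recur elsewhere. The nucleolar protein gene Zfp330 had 30.1 and 35.6 FPKM in KO MII against 71.8 and 86.3 FPKM in WT MII, -1.24 ± 0.391 (adjusted p = 0.0369). In all 3 the KO libraries lay below WT, while Zfp330 lost its call in 8 of the 12 fits that left out a library.

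**Figure D3:**
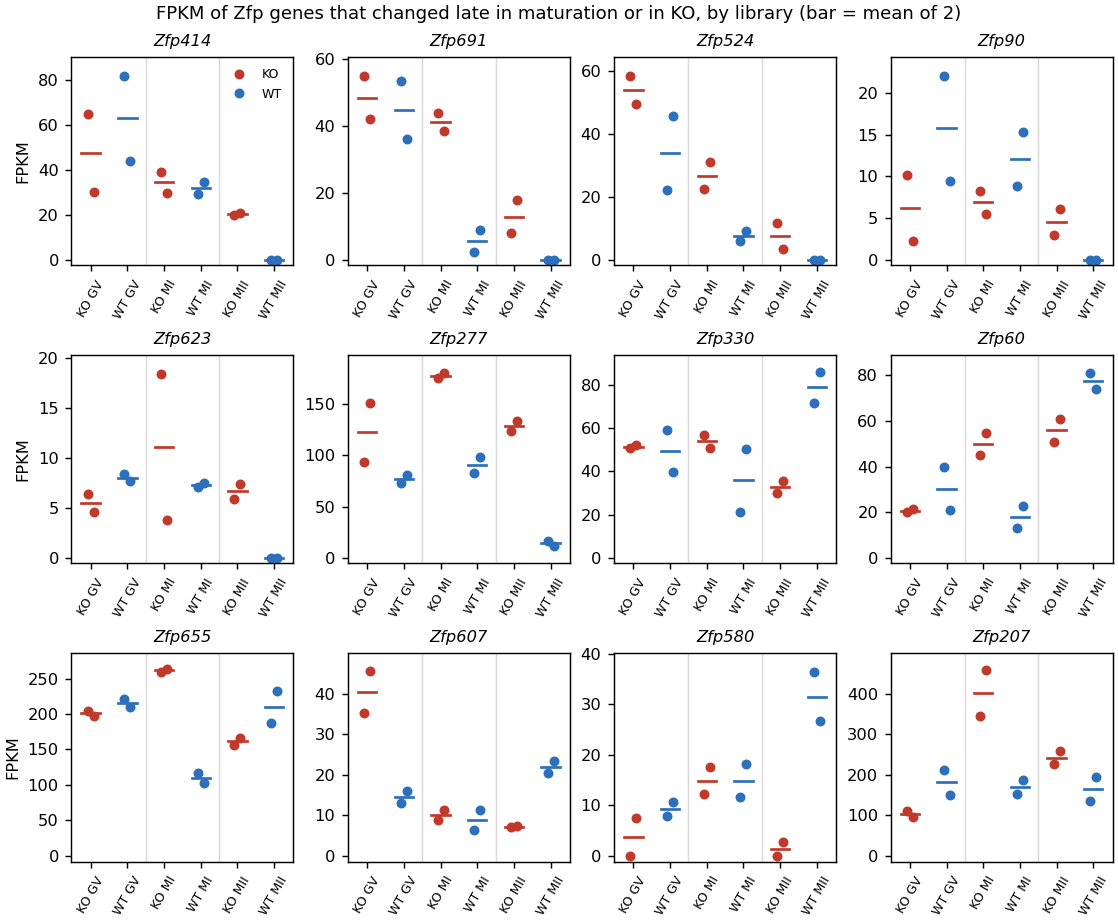
FPKM per library of 12 Zfp genes, KO (red) left of WT (blue) at GV, MI and MII, with bars at the mean of 2. Zfp414, Zfp691, Zfp524, Zfp90 and Zfp623 are at 0 in both WT MII libraries and above 0 in KO MII, Zfp277 is at 124 and 133 against 16.2 and 11.7, and Zfp330, Zfp607 and Zfp580 are lower in KO MII than in WT MII.

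From GV to MI, more members fell in WT than in KO oocytes. In WT, 2 members were higher and 34 lower at MI than at GV by limma, as deposited, against a background of 3.06% higher and 21.7% lower, so the members' 26.8% was close to the 27.3% of genes with a mean of at least 5 FPKM. With median scaling 3 were higher and 11 lower (background 8.25% and 5.98%), and without WT GV replicate 1 or 2 there were 15 or 16 lower. In KO, 8 members were higher and 3 lower, with backgrounds of 8.89% and 1.35%, and 2 higher and 4 lower with median scaling (background 4.86% and 1.86%). The KO counts were 5 and 4 higher without KO GV replicate 1 and 2, and 1 without either KO MI library. Lower ones numbered 1 without either KO GV library, 0 without either KO MI library, and 5 or 6 without WT MII replicate 1 or 2. The median MI minus GV change of members was 0.07 in KO and -0.81 in WT, and that of all tested genes 0.26 in KO and -0.87 in WT.

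Zfp296 declined in both genotypes. It had 146 and 149 FPKM in KO MI against 410 and 388 FPKM in KO GV, -1.43 ± 0.282 (limma adjusted p = 0.00827), and 49.2 and 96.1 FPKM in WT MI against 353 and 400 FPKM in WT GV, -2.43 ± 0.282 (adjusted p = 0.000267). Both declines passed with median scaling (0.00398 in KO and 0.00361 in WT). The KO call was lost without KO GV replicate 1 (0.0597) or either KO MI library (0.0663 for each), and the WT call held. Of the 34 members lower in WT, 2 were also lower in KO, where 3 fell in all: Zfp296, Zfp653 and Zfp607. Zfp653 and Zfp607 were singled out in this comparison after their values were seen. Zfp653 had 30.3 and 34.3 FPKM in KO MI against 71.2 and 112 FPKM in KO GV, and Zfp607 had 8.92 and 11.4 FPKM in KO MI against 35.3 and 45.6 FPKM in KO GV. Zfp653 lost its call in 5 of the 12 fits that left out a library (adjusted p up to 0.2), and Zfp607 without any 1 of the 4 KO GV and KO MI libraries (0.0528 to 0.134).

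Zfp61 fell in WT to 4.78 and 9.40 FPKM at MI, against 98.3 and 71.3 FPKM at GV (log2 change -3.45 ± 0.411, limma adjusted p = 0.000315, 0.00214 with median scaling). In KO it had 54.2 and 41.1 FPKM at MI against 77.0 and 67.7 FPKM at GV and was not called. Zfp839 and Zfp383 also fell in WT, Zfp839 to 0 and 1.39 FPKM at MI against 17.1 and 14.3 FPKM at GV (adjusted p = 0.0049) and Zfp383 to 0.44 and 0 FPKM against 17.5 and 7.91 FPKM (adjusted p = 0.00429). All 3 held without each library and with median scaling. Zfp791 fell in WT to 0 and 5.33 FPKM at MI, against 43.5 and 27.9 FPKM at GV (adjusted p = 0.00585), a call lost without WT GV replicate 1 (0.0547). WT MI libraries also serve the comparison of KO and WT at MI, so these values are not separate evidence of it.

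Members that rose to MI were few in WT. Zfp445, a KRAB gene that helps to keep parental imprints, had 9.34 and 9.33 FPKM in WT MI against 2.07 and 0.17 FPKM in WT GV (2.45 ± 0.665, limma adjusted p = 0.0234). It lost the call without WT GV replicate 2 (0.160), WT MI replicate 1 (0.0735) or WT MI replicate 2 (0.0720). Zfp616 had 25.6 and 33.4 FPKM in WT MI against 11.9 and 12.2 FPKM in WT GV (1.21 ± 0.359, adjusted p = 0.0337), and lost its call in 7 of the 12 fits that left out a library. In KO the abundant spindle gene Zfp207 rose, to 344 and 458 FPKM at MI against 110 and 96.3 FPKM at GV, 1.94 ± 0.248 (adjusted p = 0.000532, 0.00228 with median scaling). This call held under every alternative tried. In WT the same gene had 152 and 186 FPKM at MI against 212 and 150 FPKM at GV, with overlapping libraries.

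The difference of these changes between genotypes was tested as an interaction. As deposited, limma called 14 members with a larger MI minus GV change in KO and 0 with a smaller one, against a background of 14.4% and 0.266%, so the members' 11% was below that of genes in general. At an unadjusted p below 0.05 there were 37 and 1, and with median scaling no member was called in either direction (background 0.591% and 0.977%). The count was 6 and 7 without KO GV replicate 1 and 2, 6 without either WT GV library, 4 and 5 without KO MI replicate 1 and 2, and 23 without either WT MII library. Zfp207 had the clearest case with 2.03 ± 0.351 (adjusted p = 0.00478), followed by Zfp655 with 1.35 ± 0.237 (adjusted p = 0.00517) and Zfp828 with 1.95 ± 0.376 (adjusted p = 0.00849). These 3 held without each library in turn and were lost with median scaling.

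**Figure D4:**
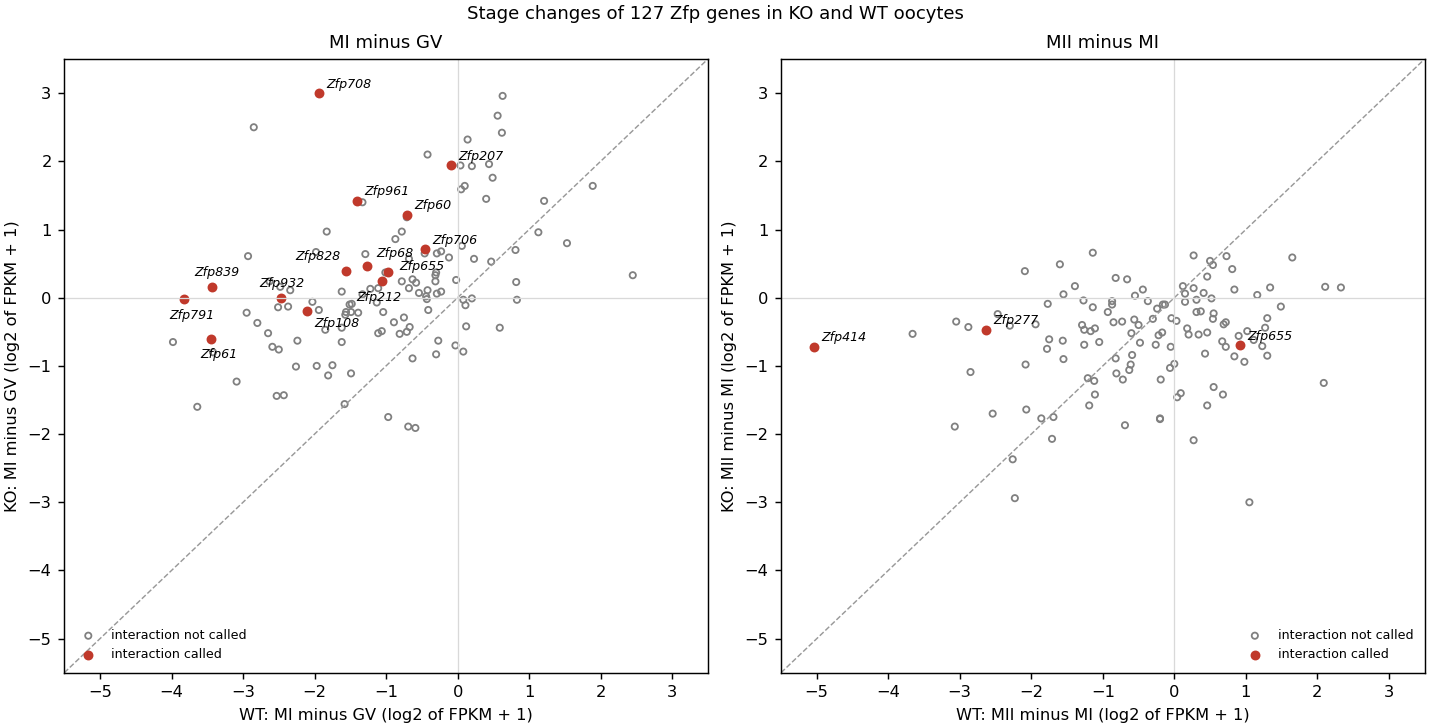
Change of each of the 127 Zfp genes in KO (vertical) against WT (horizontal), for the step to MI (left) and the step to MII (right), in log2 of FPKM + 1, with called interactions in red and equal change as a dashed line. The 14 called in the left panel lie above the line, and none of them passes with median scaling; genes listed at 0 in a group are drawn at a fitted change that depends on the pseudocount.

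From MI to MII, WT oocytes had 3 members higher and 16 lower by limma, as deposited, with backgrounds of 5.68% and 16.4%, and 21.8% lower among genes with a mean of at least 5 FPKM. With median scaling 11 were higher and 13 lower (background 11% and 13.5%), and without WT MI replicate 2 there were 6 higher. In KO, 0 members were higher and 6 lower, against backgrounds of 0.163% and 7.18%, and at an unadjusted p below 0.05 there were 0 and 20. With median scaling 0 were called in KO (background 0.943% and 0.566%), and 2 were higher and 4 lower at an unadjusted p below 0.05. The 6 became 3 without either WT GV library, 1 and 0 without KO MI replicate 1 and 2, and 1 without either KO MII library. The median change was -0.47 in KO and -0.24 in WT over members, and -0.59 in KO and -0.27 in WT over all tested genes.

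In WT, 7 of the 16 members that fell to MII were listed at 0 in both WT MII libraries, among them Zfp414, Zfp524, Zfp90 and Zfp623. Zfp414 had 29.4 and 34.6 FPKM in WT MI and 0 in both WT MII libraries (limma adjusted p = 3.71e-05). Zfp524 had 6.05 and 9.02 FPKM in WT MI (adjusted p = 0.00417), the KRAB gene Zfp90 8.79 and 15.3 FPKM (adjusted p = 0.00452) and Zfp623 7.09 and 7.48 FPKM (adjusted p = 0.00793), each with 0 in both WT MII libraries. These calls held without each library. Zfp277 fell to 16.2 and 11.7 FPKM in WT MII against 82.6 and 98.8 FPKM in WT MI (-2.63 ± 0.277, adjusted p = 9.18e-05). In KO, Zfp277 had 124 and 133 FPKM at MII and 176 and 180 FPKM at MI, and it was not called.

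As deposited, the 3 members that rose to MII in WT were Zfp60, Zfp655 and Zfp330, which were also among the 11 called higher with median scaling. The KRAB gene Zfp60 had 81.2 and 73.9 FPKM in WT MII against 13 and 22.7 FPKM in WT MI (2.11 ± 0.384, limma adjusted p = 0.00305). Zfp655 had 187 and 232 FPKM in WT MII against 117 and 103 FPKM in WT MI (0.92 ± 0.167, adjusted p = 0.00304). In KO Zfp655 fell to 156 and 166 FPKM at MII, against 260 and 264 FPKM at MI (-0.70 ± 0.167, adjusted p = 0.0329), a decline lost with median scaling (0.970) and in 6 of the 12 fits that left out a library. Zfp330 had 71.8 and 86.3 FPKM in WT MII against 21.4 and 50.5 FPKM in WT MI (1.23 ± 0.391, adjusted p = 0.0468), a call lost in 11 of the 12 such fits. Zfp60 and Zfp655 kept theirs in all 12.

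The interaction for MII minus MI called 2 members with a larger change in KO, Zfp414 and Zfp277, and 1 with a smaller one, Zfp655. The limma background was 2.81% and 3.71%. With median scaling 4 and 1 were called (background 4.34% and 2.34%), with these 3 among them. For Zfp277 the interaction was 2.16 ± 0.392 (adjusted p = 0.00954, 0.00546 with median scaling), lost without KO MI replicate 1 (0.0519). For Zfp655 it was -1.62 ± 0.237 (adjusted p = 0.00291, 0.00642 with median scaling), and it held without each library. Without KO MI replicate 1 there was 1 larger change and without WT MII replicate 1 there were 6. The smaller ones numbered 2 without either KO GV library or WT MII replicate 1, and 3 and 4 without WT MI replicate 1 and 2.

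Members with and without KRAB letters had medians close to each other in each comparison. At MI, 15 of 52 with KRAB letters and 21 of 74 without were higher in KO than in WT, with medians of 1.24 and 1.13 on the log2 scale. At MII 13 higher and 1 lower of 52 stood beside 23 higher and 2 lower of 74, with medians of 1.12 and 1.07. For MI minus GV the medians in KO were 0.04 with KRAB letters and 0.09 without, and in WT -0.92 and -0.76, where 16 of 52 and 17 of 74 fell. Of all tested genes, 27.9% were higher in KO at MI, and 25.4% were higher and 3.2% lower in KO at MII. From GV to MI in WT, 21.7% fell. The difference between these classes was not tested. By chromosome, the median KO minus WT difference at MI was 1.48 on chromosome 7 (12 of 30 higher), 1.07 on chromosome 17 (2 of 15), 1.34 on chromosome 8 (3 of 14) and 1.10 on the others (20 of 68), beside the background of 27.9%. At MII the medians were 0.84 on chromosome 7 (9 higher), 1.44 on chromosome 17 (2), 1.64 on chromosome 8 (6) and 0.96 on the others (20), beside 25.4%. Differences between chromosomes were not tested.

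**Figure D5:**
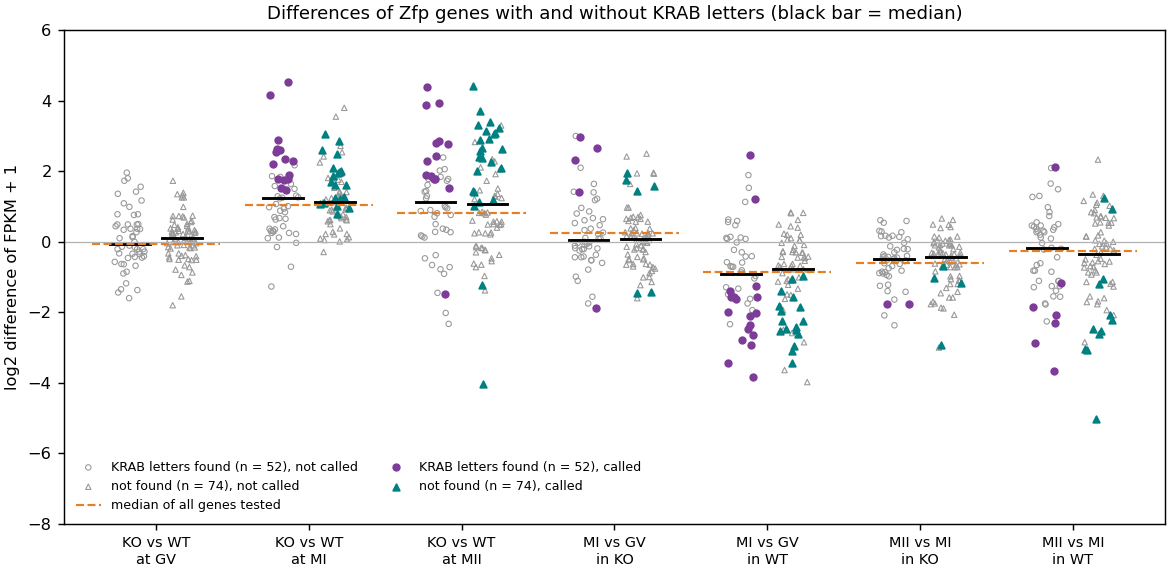
Log2 differences (FPKM + 1) of Zfp genes with KRAB letters (circles, n = 52) and without (triangles, n = 74) in 7 comparisons as deposited; filled points passed the limma test, black bars are class medians and orange dashes the median of all tested genes. At MI the class medians of KO minus WT are 1.24 and 1.13, and none of the MI calls passes with median scaling; genes listed at 0 in a group are drawn at a fitted value that depends on the pseudocount.

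The partners through which KRAB proteins act were measured too. Of 30 listed co-repressor genes 28 were tested, and 0 were called at GV (1 at an unadjusted p below 0.05), 9 were higher and 0 lower in KO at MI, and 5 higher and 2 lower in KO at MII by limma. The shares were 32.1% higher at MI, against 27.9% of all tested genes, and 17.9% higher and 7.14% lower at MII, against 25.4% and 3.2%. Their median differences were 0.81 at MI and 0.42 at MII, against 1.03 and 0.81 over all tested genes. With median scaling the counts were 0 higher and 1 lower at MI (background 1.88% and 2.83%), and 3 higher and 5 lower at MII (background 14.5% and 10.4%). Trim28, the scaffold that KRAB domains bind, had 238 and 92.8 FPKM in KO MI against 128 and 81.2 FPKM in WT MI, and 106 and 66.3 FPKM in KO MII against 143 and 149 FPKM in WT MII. The replicates of Trim28 were wide apart in KO MI and no difference passed the test as deposited (adjusted p = 0.412 at MI and 0.264 at MII). Setdb1 had 76.0 and 108 FPKM in KO MI against 18.5 and 35.5 FPKM in WT MI, 1.78 ± 0.352 (adjusted p = 0.0056, 0.277 with median scaling), lost without KO MI replicate 2 (0.0632). At MII Setdb1 had 66.1 and 75.6 FPKM in KO against 33.9 and 36.2 FPKM in WT, which just missed the threshold (adjusted p = 0.0581).

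Fits of only the groups in a comparison have 2 residual degrees of freedom and ended several of these calls. They were lost for Zfp109, Zfp791, Zfp148, Zfp622 and Setdb1 between KO and WT at MI, and for Zfp708, Zfp580 and Zfp607 at MII. From GV to MI in KO they were lost for Zfp692 and Zfp653. In the WT stage comparisons they were lost for Zfp791, Zfp445 and Zfp616 at MI, and for Zfp414, Zfp524, Zfp90, Zfp623, Zfp277, Zfp60, Zfp655 and Zfp330 at MII.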

How the data were processed

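FPKM values were deposited by the authors in 1 table of 12 libraries and in 1 file per library, which hold the same values. The submitters' processing notes name Cufflinks 2.2.1, TopHat2 2.0.11, Bowtie2 2.1.0, CASAVA 1.8 and the build mm9. The sources used here give no scaling factor, read count or annotation. Depth is therefore unknown, and precision was judged from replicates.

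Values were analysed as log2(FPKM + 1) for 11667 genes with a mean of at least 1 FPKM, so changes of low genes are understated. Means of 6 groups were fitted with limma 3.58.1 (R 4.3.3, residual df 6, abundance trend). P-values are 2-sided with Benjamini-Hochberg adjustment over all genes tested, and genes below 0.05 are called. The script was tested on simulated data. Median scaling divides each library by its median ratio over genes with a mean of at least 10 FPKM.

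Sequences and protein letters come from GENCODE mouse release 1, which uses the build of the files (Python 3.11.15, Biopython 1.88). Patterns were C2H2 spacing in the longest coding sequence, KRAB letters F..E[EQ]W or LY..VM.E, and SCAN letters L.LEQFL.

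The members and lists were chosen with earlier results of these data known. Named genes are the 5 largest called, non-overlapping changes per direction in KO vs WT and WT stage comparisons, the 10 highest members, fixed role genes, called interactions (up to 5 per direction), genes at the limit, and Cnot6l, Trim28, Setdb1 and co-repressors. The text gives a part of them.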

Additional observations from a re-analysis of the deposited data

Results flagged for a closer look

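The MI minus GV change differed between KO and WT, by a test of the difference itself, in 14 Zfp genes, each with a larger change in KO (log2, KO change minus WT change, as deposited). The KRAB genes were Zfp708 (4.94), Zfp61 (2.85), Zfp961 (2.83), Zfp932 (2.47), Zfp791 (3.81), Zfp60 (1.93), Zfp108 (1.92) and Zfp68 (1.73). The others were Zfp839 (3.58), Zfp207 (2.03), Zfp828 (1.95), Zfp655 (1.35), Zfp212 (1.30) and Zfp706 (1.16). The median of this difference over all tested genes was 1.13, and none of the 14 passed with libraries scaled to a common median. As deposited, 14.4% of all tested genes had a larger change in KO, against 11% of members. Only Zfp207, Zfp655 and Zfp828 kept the call without each library in turn. Zfp708, Zfp791 and Zfp839 also lost it with a pseudocount of 0.1 and with no filter on low values. Zfp60 also lost it with its groups fitted alone and with a replicate block. Zfp961 had 87.9 and 88.6 FPKM in KO MI against 45.1 and 23.0 FPKM in KO GV, and 20.1 and 9.91 FPKM in WT MI against 35.5 and 43.6 FPKM in WT GV.

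The MII minus MI change differed between KO and WT in Zfp277 (2.16), Zfp655 (-1.62) and Zfp414 (adjusted p = 0.00377), and these 3 also passed with median scaling. Zfp414 is given by its limma adjusted p alone, since it is listed at 0 in both WT MII libraries.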

How the results depend on the processing

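A pseudocount of 0.1, no filter on low values, median scaling, each comparison's groups fitted alone, a replicate block and each library left out were tried. Median scaling gave, as members higher or lower, 0 higher in KO at MI, 24 higher and 13 lower in KO at MII, 11 lower from GV to MI and 11 higher from MI to MII in WT, 2 higher from GV to MI and 0 lower from MI to MII in KO, and 0 and 4 larger changes in the GV to MI and MI to MII interactions. Groups fitted alone gave 15 higher and 1 lower in KO at MII, 0 higher and 15 lower from GV to MI in WT, 0 and 0 from MI to MII in WT, and 4 higher from GV to MI in KO. A pseudocount of 0.1 gave 1 higher from GV to MI in WT, and 6 larger and 2 smaller changes in the MI to MII interaction. Without 1 library the counts were 10 to 53 higher in KO at MI, 20 to 41 higher and 0 to 4 lower in KO at MII, 0 to 2 higher and 15 to 44 lower from GV to MI in WT, 2 to 6 higher from MI to MII in WT, 1 to 12 higher and 0 to 6 lower from GV to MI in KO, 0 to 9 lower from MI to MII in KO, 4 to 23 larger in the first interaction, and 1 to 6 larger and 1 to 4 smaller in the second. The cause of these shifts was not tested.

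Under median scaling the MI differences of Zfp277 (-0.05, adjusted p = 0.963) and Zfp706 (-0.24, adjusted p = 0.633) reversed. Of 83 named calls, 30 held without each library in turn and 13 under every alternative. With the replicate block 36 members were higher in KO at MI and 37 higher and 3 lower at MII. Libraries of the same number did not deviate together (r -0.0292 to 0.0547 over 15 pairs of groups), so the numbers are not taken as pairs. With 2 libraries a group and depth unknown, genes listed at 0 limit the reading.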
